A study of Mus musculus with 20 samples.

Results

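Collagen transcripts were followed in the livers of 20 male mice of 28 weeks, on a mixed Sv129/C57Bl6J background, with 1 single-colour array per mouse. The collagen genes were taken as the probes whose gene name starts with Col, a number, the letter a and a number. This matched 84 probes, of which 4 carried the name Col4a3bp, a ceramide transfer protein that is no collagen, and were left out. The other 80 of the array's 41174 probes stood for 40 collagen genes among 27574 gene names. A gene was tested where some group had 4 or more of its 5 arrays with the probe well above background, which held for 35 collagen genes among 17552 genes. Col9a1, Col9a3, Col10a1, Col19a1 and Col28a1 did not reach that level and have no test here.

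The mice formed 4 groups of 5. LXR knockout mice on Western diet, LXR knockout mice on normal diet, wild-type mice on Western diet and wild-type mice on normal diet were compared, and each diet had been fed for 7 weeks. The knockout mice lacked both liver X receptors, LXR alpha (Nr1h3) and LXR beta (Nr1h2), in the whole body and not in the liver alone. The RNA was total RNA of liver fragments. A collagen level is thus a sum over every cell type of the tissue, and fewer cells of a type and less RNA per cell cannot be told apart.

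Collagens are the structural proteins of the extracellular matrix, built of chains that wind into a helix. Fibrillar collagens such as types I, III and V assemble into the banded fibres that give a tissue its tensile strength. Type IV collagen forms the sheet-like network of basement membranes, under epithelia and around vessels, and type VI forms beaded filaments between them. FACIT collagens sit on the surface of fibrils, short-chain collagens form lattices, multiplexins lie next to basement membranes, and transmembrane collagens are anchored in cell membranes. In liver, activated stellate cells and portal fibroblasts are known as the main makers of fibrillar collagen, and hepatocytes are known to make the multiplexin Col18a1. LXR alpha and LXR beta are nuclear receptors for oxysterols that control cholesterol and fatty acid genes.

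All levels below are log2 signals relative to the 75th percentile of the same array and differences are in log2 units, so 0 is a signal at that percentile. A level compares the same probe between mice and is not set against that of another probe. The 75th percentile itself was 332.2 to 431.9 in knockout mice on Western diet, 220.2 to 318.7 in knockout mice on normal diet, 258.6 to 326.7 in wild-type mice on Western diet and 167.6 to 275.4 in wild-type mice on normal diet. Between 53.6% and 67.12% of the probes were well above background on an array. The deleted genes followed the labels: the Nr1h3 difference was -8.95 on Western diet (adjusted p = 1.53e-13) and -9.04 on normal diet (adjusted p = 2.6e-13), and that of Nr1h2 was -5.38 on both diets (adjusted p = 1.58e-10 and 1.07e-09). Arrays with the same scan time in the file headers were taken to lie on the same slide. This gave 6 slides, most of which held mice of several groups, and slide 5 held wild-type mice only.

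On Western diet, where the effect of losing both receptors could be read in fat-fed animals, collagen genes were mostly higher in the knockout. Of the 35 collagen genes, 23 rose and 4 fell in knockout against wild-type mice at an adjusted p under 0.05 (limma, Benjamini-Hochberg over all genes), while 26.1% of all genes rose, 30.6% fell and 56.7% did either. The median log2 difference over the 35 was 1.54, against -0.12 over all genes. It was -0.03 with another background correction (normexp), which adds an offset of 50 to every signal, against -0.19 over all genes. With values below the detection floor raised to that floor the median was 1.16. The chains of the common interstitial fibrils led the list: Col1a1, Col5a2, Col1a2 and Col3a1 were 14.9- to 42.4-fold higher. The 4 genes that fell were Col5a3, Col17a1, Col27a1 and Col18a1. Of the genes that rose, Col4a3 and Col4a5 of the basement membranes, Col8a2, Col23a1 and Col24a1 were tested only because knockout mice on Western diet reached the detection level. Col17a1 was tested only because wild-type mice on Western diet did. These calls are thus not independent of the filter. With the slide as a block no call was lost, and the differences of Col1a1, Col3a1, Col5a3 and Col4a1 were 5.34, 3.86, -2.95 and 2.88. By class, 7 of 11 fibrillar genes rose and 2 fell (median 1.79, 0.77 with dim values at the floor, or -0.04 with normexp), 4 of 6 basement membrane genes rose and none fell (median 2.94, 1.07 at the floor, or -0.10 with normexp), and of the other 18 genes 12 rose and 2 fell (median 1.33, or 0.014 with normexp).

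**Figure D1:**
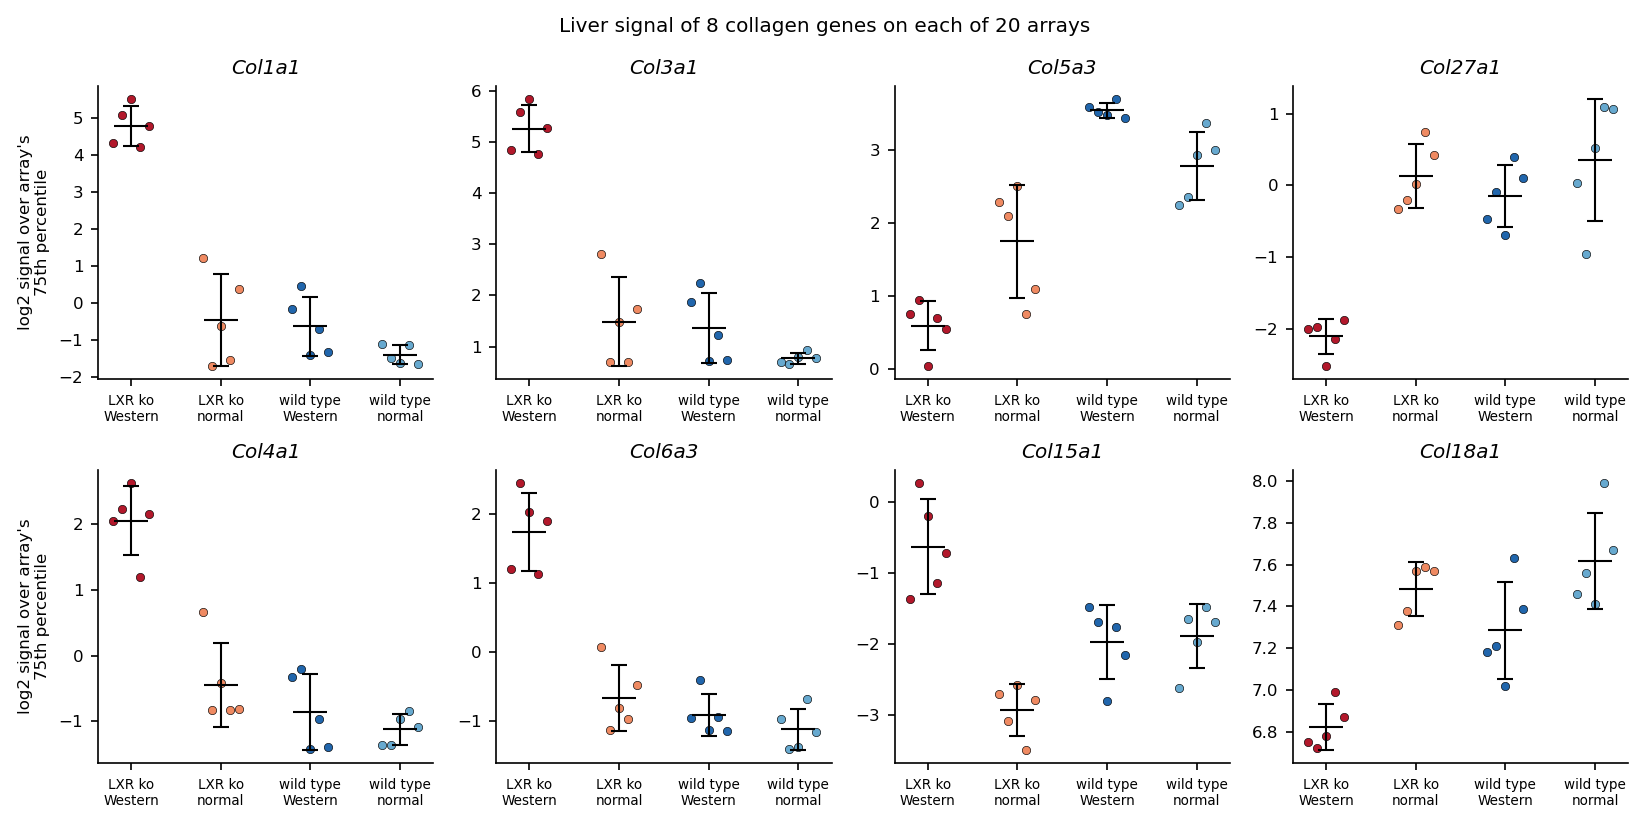
Log2 signal relative to the array's 75th percentile for 8 collagen genes, 1 dot per mouse in the 4 groups, with the group mean and SD as bars (n = 5 each). Col1a1, Col3a1, Col4a1, Col6a3 and Col15a1 are highest in knockout mice on Western diet, without overlap with any other group, while Col5a3, Col27a1 and Col18a1 have their lowest mean there.

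Markers of several other cell types also differed between genotypes on Western diet, where 26.1% of all genes rose and 30.6% fell. Of 9 myofibroblast markers 7 rose and none fell, and their summed level was 24.9 to 54.8 in knockout mice against 8.63 to 14.2 in wild-type mice (in multiples of the 75th percentile). Of 6 cholangiocyte markers 6 rose, at 159 to 232 in knockout mice against 35 to 156 in wild-type mice. Of 9 macrophage markers 6 rose and 3 fell, with single differences of -8.06 to 11.5. Their sum, which the brightest markers dominate, was 91.1 to 131 in knockout mice against 11.1 to 37.8 in wild-type mice. Those of the liver capsule, its mesothelial cover, rose in 3 of 4 genes, at 0.668 to 4.34 in knockout mice against 0.399 to 0.787 in wild-type mice. The 7 hepatocyte markers, high in all mice of this liver tissue, gave none that rose and 6 that fell, at 629 to 723 in knockout mice against 913 to 1250 in wild-type mice. Markers of the quiescent stellate cell went both ways, with 4 of 11 higher and 3 lower, at 47.3 to 119 in knockout mice against 38.4 to 102 in wild-type mice. The endothelial ones did so too, with 3 of 8 higher and 1 lower, at 10 to 24.8 in knockout mice against 12.2 to 17.4 in wild-type mice. Skeletal muscle had 1 of 4 markers above background, which rose at a summed level of at most 0.0946, and 1 of 3 red blood cell markers fell. The part of these cell types in the collagen differences was not tested.

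**Figure D2:**
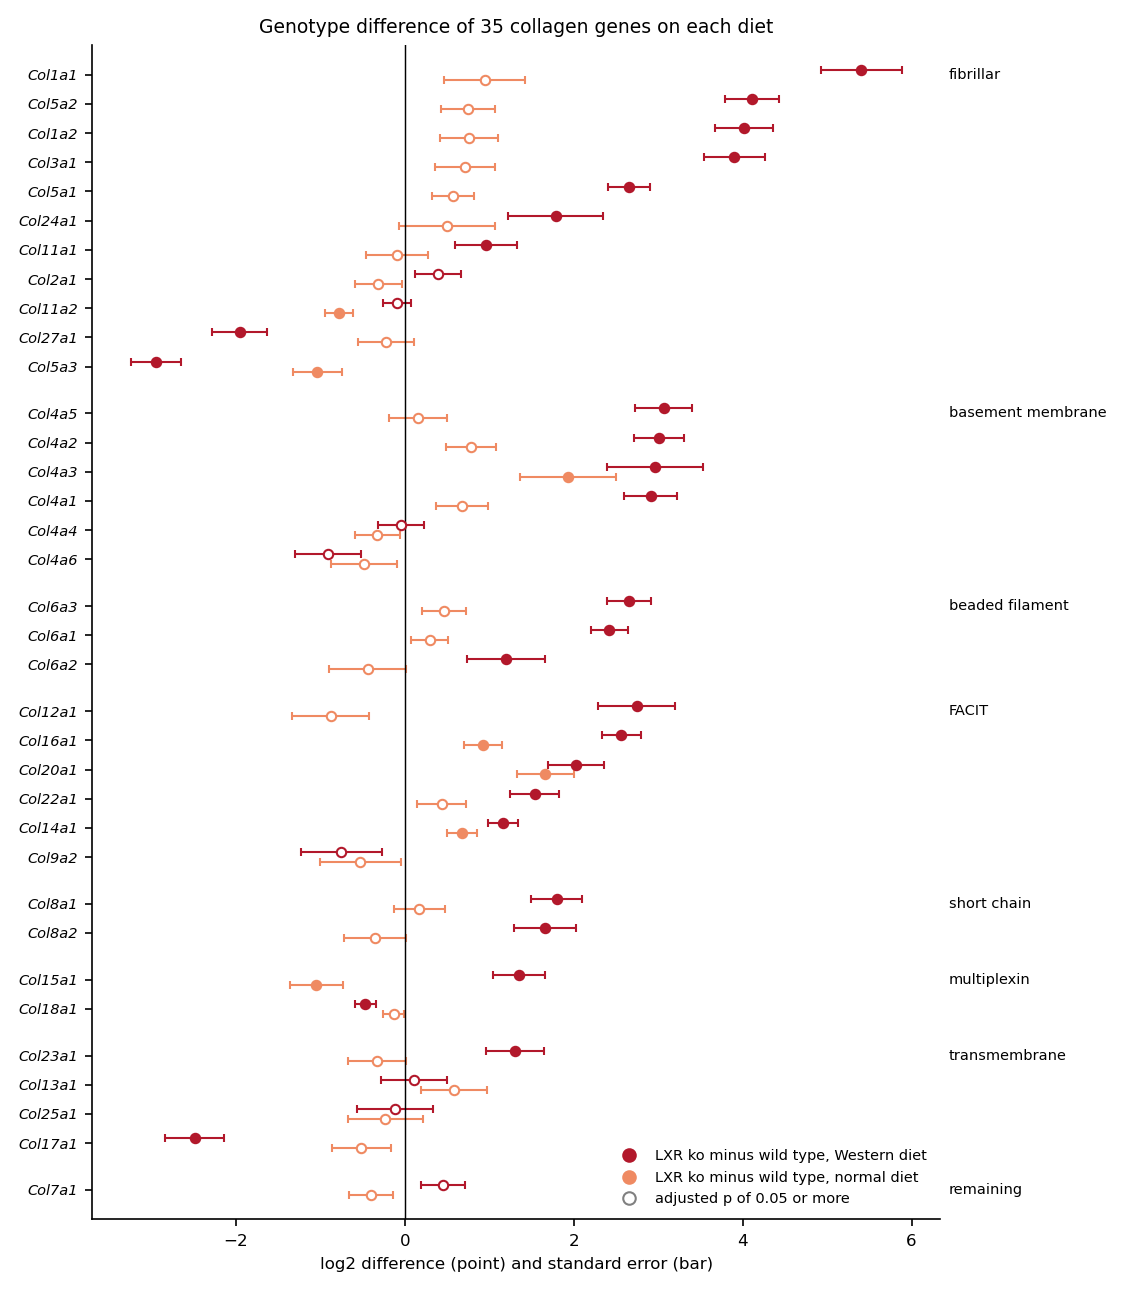
Log2 difference of knockout minus wild-type mice for the 35 collagen genes tested, by class, on Western diet (dark red) and normal diet (orange), with the standard error as bars, 5 mice a group. Filled points have an adjusted p under 0.05: 23 higher and 4 lower on Western diet, 4 higher and 3 lower on normal diet, although 7 of the 23 are negative with normexp.

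Between genotypes on Western diet the widest differences were those of fibrillar genes. Col1a1 encodes the alpha 1 chain of type I collagen, and its probe of 10 replicate spots lies at chr11:94767851-94767910 (mm8, plus strand). Col1a1 on Western diet was at 4.33, 5.08, 5.51, 4.21 and 4.78 in knockout mice, against -0.15, 0.47, -1.41, -0.71 and -1.33 in wild-type mice. Col1a1 on normal diet was at 1.22, -1.70, -0.61, -1.54 and 0.37 in knockout mice, against -1.10, -1.48, -1.62, -1.14 and -1.65 in wild-type mice. All 5 knockout mice on Western diet were far above every other mouse, while knockout mice on normal diet spread over the range of the wild-type mice and above it. Col1a1 was 5.41 ± 0.48 higher in knockout mice on Western diet (SE, 42.4-fold, adjusted p = 3.04e-08), and within the 4 slides that held both groups the difference was 4.48 to 5.62. On normal diet the Col1a1 difference was 0.95 ± 0.48 (adjusted p = 0.181), not past the test. Western diet raised it by 5.23 ± 0.48 in knockout mice (adjusted p = 7.99e-08), and the genotype difference was 4.46 ± 0.67 wider on Western than on normal diet (adjusted p = 0.000101). The 10 spots agreed closely, with a median SD of 0.0653 log2 units within an array, and another Col1a1 probe gave 5.08. The remaining Col1a1 probe was well above background in all 5 knockout mice on Western diet and in no mouse of the other groups.

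Col1a2, the partner chain of Col1a1 in type I fibrils, moved alongside it. Col1a2 on Western diet was at 4.28, 5.41, 5.87, 4.88 and 5.60 in knockout mice, against 1.48, 1.73, 0.78, 0.91 and 1.05 in wild-type mice. Col1a2 on normal diet was at 2.65, 1.05, 1.29, 0.92 and 2.37 in knockout mice, against 0.56, 0.84, 0.75, 1.40 and 0.91 in wild-type mice. The Western diet groups did not overlap, whereas 2 of the knockout mice on normal diet, the first and the fifth, stood above the rest of both normal diet groups. The Col1a2 difference was 4.02 ± 0.34 on Western diet (16.2-fold, adjusted p = 2.07e-08), 0.76 on normal diet (adjusted p = 0.132), and 3.55 ± 0.34 between diets in knockout mice (adjusted p = 1.51e-07).

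Type III collagen, of the chain Col3a1, is the fine reticular fibre found beside type I. Col3a1 on Western diet was at 4.85, 5.58, 5.83, 4.76 and 5.27 in knockout mice, against 1.87, 2.25, 0.72, 1.23 and 0.74 in wild-type mice. Col3a1 on normal diet was at 2.80, 0.71, 1.48, 0.71 and 1.74 in knockout mice, against 0.70, 0.67, 0.80, 0.94 and 0.77 in wild-type mice. Its order over mice resembled that of Col1a1, with knockout mice on Western diet apart from the rest and the first knockout mouse on normal diet highest of its group. Col3a1 was 3.90 ± 0.36 higher on Western diet (14.9-fold, adjusted p = 5.3e-08), and 0.71 apart on normal diet (adjusted p = 0.183).

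Type V collagen nucleates type I fibrils, and its 3 chains did not move together. Col5a2 was at -0.33, 0.12, 0.44, -0.55 and -0.04 in knockout mice on Western diet, against -3.54, -3.60, -4.28, -5.04 and -4.48 in wild-type mice. Every knockout mouse was above every wild-type mouse, with a wide gap. The Col5a2 difference of 4.12 ± 0.32 (17.3-fold, adjusted p = 6.84e-09) was 1.39 with normexp, and Col5a2 rose by 3.64 ± 0.32 with the diet in knockout mice (adjusted p = 5.32e-08). Col5a1 averaged 1.53 ± 0.50 in knockout mice and -1.12 ± 0.35 in wild-type mice on Western diet (SD, n = 5 each), a difference of 2.65 ± 0.25 (adjusted p = 6.95e-08). The lower-signal Col5a1 probe gave 0.90 (adjusted p = 0.0334).

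Col5a3, the least widely expressed of those chains, went the opposite way. Col5a3 on Western diet was at 0.75, 0.94, 0.04, 0.70 and 0.54 in knockout mice, against 3.59, 3.52, 3.48, 3.69 and 3.43 in wild-type mice. Col5a3 on normal diet was at 2.29, 2.09, 2.50, 0.75 and 1.10 in knockout mice, against 2.25, 2.35, 2.93, 3.37 and 2.99 in wild-type mice. On Western diet the wild-type mice lay within a narrow band above all knockout mice, and on normal diet 2 knockout mice, the fourth and the fifth, were below every other mouse of both groups. Col5a3 was lower by 2.95 ± 0.29 on Western diet (0.129 of the wild-type level, adjusted p = 1.35e-07), with -3.48 to -2.78 within slides, and the difference on normal diet was -1.03 ± 0.29 (adjusted p = 0.0183), with -2.27 to 0.15 within slides. In knockout mice Western diet lowered it further, by 1.15 ± 0.29 (adjusted p = 0.00321), and the genotype difference changed by -1.91 ± 0.42 between diets (adjusted p = 0.00219). Its other probe gave -2.88 on Western diet.

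The promoters of Col1a2 and Col5a3, a pair from the same class that moved in opposite directions, are shown from RefSeq (GRCm38.p6), 300 bases around the annotated start, most of them before it. They lie at chr6:4505368-4505667, plus strand, and chr9:20815018-20815317, minus strand. Capitals mark the CCAAT box, the TATA motif TATAAA and the GC box GGGCGG on either strand, and no match in the sequences printed here overlapped a match of another motif.
Col1a2: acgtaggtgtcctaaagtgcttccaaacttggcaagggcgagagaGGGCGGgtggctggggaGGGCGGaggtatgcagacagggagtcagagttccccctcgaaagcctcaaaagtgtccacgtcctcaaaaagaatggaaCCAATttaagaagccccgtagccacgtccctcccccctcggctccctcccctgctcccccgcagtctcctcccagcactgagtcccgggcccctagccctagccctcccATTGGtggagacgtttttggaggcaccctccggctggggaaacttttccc
Col5a3: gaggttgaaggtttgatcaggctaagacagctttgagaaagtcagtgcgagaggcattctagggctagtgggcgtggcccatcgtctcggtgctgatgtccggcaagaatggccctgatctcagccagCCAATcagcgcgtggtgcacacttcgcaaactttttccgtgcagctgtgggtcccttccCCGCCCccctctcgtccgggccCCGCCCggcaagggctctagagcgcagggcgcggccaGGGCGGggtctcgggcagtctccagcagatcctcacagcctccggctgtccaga
RefSeq windows were found for 32 of the 40 genes, 35 windows in all, and the table held none for Col1a1. The GC box was in 57.1% of the collagen windows and in 35.7% of all 32851 windows, CCAAT in 34.3% and 37.4%, and TATAAA in 14.3% and 13.6%. The direct repeat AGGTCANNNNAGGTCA, the form of element known for LXR, was in none of the collagen windows and in 0.0152% of all windows.

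Of the remaining fibrillar genes, Col27a1, expressed in cartilage, also fell. Col27a1 on Western diet was at -2.01, -1.98, -2.52, -2.15 and -1.88 in knockout mice, against -0.47, -0.09, -0.69, 0.40 and 0.10 in wild-type mice. Col27a1 on normal diet was at -0.33, -0.20, 0.02, 0.74 and 0.43 in knockout mice, against 0.04, -0.95, 0.52, 1.09 and 1.07 in wild-type mice. The knockout mice on Western diet were below all other mice, and the groups on normal diet overlapped. The Col27a1 difference was -1.96 ± 0.33 on Western diet (adjusted p = 5.25e-05), or -1.18 with normexp, and -2.24 ± 0.33 between diets in knockout mice (adjusted p = 1.66e-05). Its other probe gave -2.44.

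Col11a2, the cartilage fibril chain, showed its difference on normal diet instead. Col11a2 on normal diet was at -3.56, -3.54, -2.94, -2.63 and -3.22 in knockout mice, against -2.38, -2.38, -2.29, -2.51 and -2.44 in wild-type mice. Col11a2 on Western diet was at -3.26, -3.24, -2.89, -3.07 and -2.64 in knockout mice, against -3.18, -3.06, -2.85, -2.73 and -2.84 in wild-type mice. All knockout mice on normal diet were below all wild-type mice on that diet, and the groups on Western diet overlapped. Fed the normal diet, knockout mice differed by -0.78 ± 0.16 in Col11a2 (adjusted p = 0.00243), and fed the Western diet by -0.088 (adjusted p = 0.67), and the change between the diets of 0.69 ± 0.23 passed the test (adjusted p = 0.0341) but was -0.24 with normexp. The other passed Col11a2 probe was at -0.47 on normal diet (adjusted p = 0.383) and 0.39 in the interaction (adjusted p = 0.618), both in the fit of all probes. Col11a1 was 0.96 higher on Western diet (adjusted p = 0.032) with overlapping groups, a value of -0.21 with normexp. Col24a1, not well above background in any wild-type mouse on that diet, was at least 1.32-fold higher (adjusted p = 0.0115). Folds given as at least so much compare the bright group's mean with the floor of well-measured signals in the dim group.

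The main chains of basement membranes, Col4a1 and Col4a2, are transcribed head to head and gave near-equal differences. Col4a1 on Western diet was at 2.05, 2.23, 2.62, 1.20 and 2.15 in knockout mice, against -0.32, -0.21, -1.42, -0.97 and -1.39 in wild-type mice. Col4a1 on normal diet was at 0.66, -0.83, -0.41, -0.83 and -0.82 in knockout mice, against -1.36, -1.36, -0.96, -0.84 and -1.09 in wild-type mice. Every knockout mouse on Western diet was above every other mouse, and on normal diet the first knockout mouse stood far above the rest of its group. The Col4a1 difference was 2.91 ± 0.31 on Western diet (7.53-fold, adjusted p = 3.18e-07), with 2.37 to 3.12 within slides, and 0.68 on normal diet (adjusted p = 0.142).

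For Col4a2 the picture was the same in kind. Col4a2 on Western diet was at 1.46, 2.13, 2.12, 0.65 and 1.79 in knockout mice, against -1.05, -0.87, -1.87, -1.45 and -1.66 in wild-type mice. Col4a2 on normal diet was at -0.07, -1.02, -0.38, -1.34 and -0.81 in knockout mice, against -1.77, -2.04, -1.35, -1.04 and -1.35 in wild-type mice. The fourth knockout mouse was the lowest of its Western diet group for Col4a2, as it was for Col4a1, and still above all wild-type mice. The Col4a2 difference was 3.01 ± 0.30 on Western diet (8.05-fold, adjusted p = 1.18e-07). With the diet in knockout mice Col4a1 rose by 2.50 ± 0.31 (adjusted p = 2.99e-06) and Col4a2 by 2.35 ± 0.30 (adjusted p = 3.32e-06), and the genotype differences were wider on Western diet by 2.24 and 2.22 (adjusted p = 0.00105 and 0.000721).

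The shared start region of this pair is shown because its members moved together. The annotated starts lie 21 bases apart on opposite strands and the windows overlap by 78 bases, at chr8:11312777-11313076, minus strand, and chr8:11312555-11312854, plus strand (RefSeq, GRCm38.p6, capitals as above).
Col4a1: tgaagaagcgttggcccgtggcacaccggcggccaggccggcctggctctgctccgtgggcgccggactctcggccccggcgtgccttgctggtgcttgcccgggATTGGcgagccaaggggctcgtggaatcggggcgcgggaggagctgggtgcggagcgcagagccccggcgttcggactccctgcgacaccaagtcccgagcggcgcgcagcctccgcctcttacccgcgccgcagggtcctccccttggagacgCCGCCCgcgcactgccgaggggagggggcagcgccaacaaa
Col4a2: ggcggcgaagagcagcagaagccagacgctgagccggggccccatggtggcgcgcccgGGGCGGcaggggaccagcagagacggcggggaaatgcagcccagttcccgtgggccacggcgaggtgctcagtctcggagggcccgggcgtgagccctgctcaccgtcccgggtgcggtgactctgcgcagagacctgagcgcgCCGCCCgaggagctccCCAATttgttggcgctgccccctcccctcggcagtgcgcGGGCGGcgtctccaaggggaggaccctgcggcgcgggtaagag
Both hold the GC box and the CCAAT box, in the letters searched, and neither holds TATAAA. A match of letters is a description and shows no binding.

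The chains of the kidney and lung type basement membrane were dim in liver. Col4a5 on Western diet was at -4.02, -3.23, -3.16, -3.85 and -4.25 in knockout mice, against -7.25, -6.72, -6.52, -6.41 and -6.92 in wild-type mice. Col4a3 on Western diet was at -5.17, -4.63, -4.25, -3.69 and -4.05 in knockout mice, against -7.37, -7.37, -7.34, -7.19 and -7.34 in wild-type mice. Neither gene was well above background in any wild-type mouse on Western diet, while both were in all 5 knockout mice. The knockout level of Col4a5 was at least 2.63-fold higher (adjusted p = 4.57e-07), that of Col4a3 at least 1.66-fold (adjusted p = 0.000231), and the fitted differences of 3.06 and 2.96 became -0.094 and -0.14 with normexp. On normal diet Col4a3 was at least 1.02-fold higher in knockout mice (adjusted p = 0.0227), with 3 of 5 knockout mice and no wild-type mouse above background. Western diet raised Col4a5 at least 2.42-fold in knockout mice (adjusted p = 9.21e-06).

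For Col2a1, Col4a4 and Col4a6 the probes of a gene disagreed, and the result depends on which is read. The Col2a1 probe that stands for the gene lies at chr15:97804108-97804167 (mm8, minus strand), and on Western diet it read -2.39, -1.64, -1.79, -1.38 and -2.25 in knockout mice, against -2.80, -2.00, -1.74, -2.81 and -2.06 in wild-type mice. A probe of 10 spots that overlaps it, at chr15:97804088-97804147, read -1.31, 0.51, 0.81, -0.09 and -2.14 in knockout mice, against -4.24, -2.61, -4.00, -6.43 and -4.73 in wild-type mice. The first probe overlapped between the groups and the other did not. Their differences were 0.39 (adjusted p = 0.233) and 3.96 (adjusted p = 4.76e-05, in the fit of all probes).

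The 2 passed probes of Col4a6 gave opposite signs. On Western diet the higher-signal probe read -2.62, -1.59, -1.74, -0.97 and -2.77 in knockout mice, against -1.66, -1.03, -0.24, -1.49 and -0.69 in wild-type mice, and the other read -2.99, -1.52, -2.07, -3.01 and -2.73 in knockout mice, against -5.70, -4.96, -4.89, -5.43 and -5.18 in wild-type mice. The first was -0.91 apart with an adjusted p of 0.0536, and the other had a fitted difference of 2.77 (adjusted p = 1.5e-07). For Col4a4 the corresponding values were -0.04 (adjusted p = 0.899) and 1.29 (adjusted p = 0.00179). The lower-signal probes of Col4a6 and Col4a4 were well above background in all 5 knockout mice and in none of the wild-type mice on Western diet, so their fitted differences are no bounds. These probes passed the filter only through knockout mice on Western diet, so their differences and their group shares below are not independent of the filter. In the higher-signal probes the slide took 82.7% (Col2a1), 92.2% (Col4a4) and 67.3% (Col4a6) of the variance and the group 16.2%, 8.9% and 41.1%, whereas in the lower-signal probes the slide took 26.1%, 4.52% and 6.35% and the group 74.9%, 74.8% and 87.3%. Over the 35 collagen genes the median share was 76% for the group and 16.5% for the slide, and over all genes 57.7% and 21.6%. Slide and group shares were each computed alone and do not divide the variance between them. With the slide as a block the differences of the higher-signal probes were 0.39 for Col2a1 (adjusted p = 0.00663) and -0.91 for Col4a6 (adjusted p = 1.24e-05). Of 17 collagen genes with over 1 passed probe, 15 had a probe past the test on Western diet, 11 had all of them past it, and none had probes past it in opposite directions in the fit without the slide block. By 1 probe a gene, 56.7% of all genes passed there, and the share among all genes with several passed probes is not given here. Some second probes, such as those of Col1a1, Col3a1 and Col8a1, passed the filter only through knockout mice on Western diet. The counts are thus not independent of the filter.

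**Figure D3:**
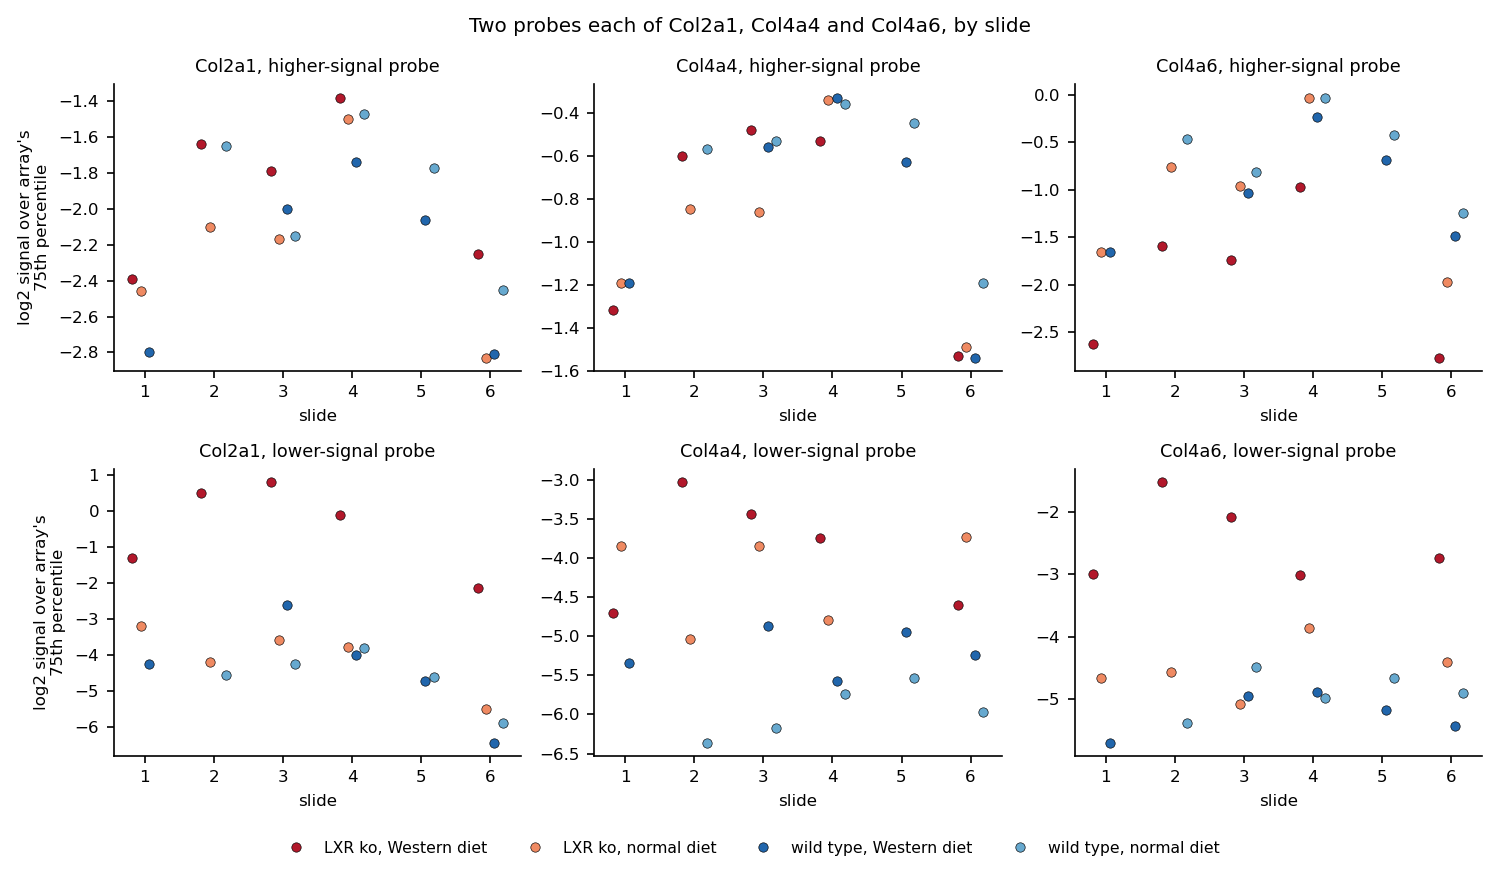
Log2 signal of the higher-signal and the lower-signal probe of Col2a1, Col4a4 and Col4a6 by slide (arrays of the same scan time), 1 dot per mouse, coloured by group. In the higher-signal probes the dots of a slide lie close together whatever their group, while in the lower-signal probes they part by group.

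The 3 beaded filament genes of the naming rule rose on Western diet. Col6a3 on Western diet was at 1.20, 2.44, 2.03, 1.12 and 1.90 in knockout mice, against -0.96, -0.41, -1.14, -0.95 and -1.15 in wild-type mice. Col6a3 on normal diet was at 0.07, -1.13, -0.81, -0.98 and -0.48 in knockout mice, against -0.98, -1.41, -1.38, -0.69 and -1.17 in wild-type mice. Col6a3, the long chain of type VI collagen, was higher in every knockout mouse on Western diet than in any other mouse. Its difference was 2.66 ± 0.26 (adjusted p = 1.06e-07), with 2.17 to 2.84 within slides. The neighbouring genes Col6a1 and Col6a2, which encode the shorter chains, differed by 2.42 ± 0.22 (adjusted p = 4.62e-08, or 0.87 with normexp) and 1.19 ± 0.46 (adjusted p = 0.0337, or 0.018 with normexp). Col6a1 averaged -0.68 ± 0.37 in knockout mice and -3.10 ± 0.28 in wild-type mice, while Col6a2 averaged -2.29 ± 0.21 in knockout mice and -3.49 ± 0.56 in wild-type mice on Western diet (SD, n = 5 each). All 3 also rose with Western diet in knockout mice, by 2.40 for Col6a3 (adjusted p = 5.52e-07), 1.85 for Col6a1 (adjusted p = 1.81e-06) and 1.40 for Col6a2 (adjusted p = 0.0166). A probe of Col6a4, outside the naming rule, was at 0.050 between genotypes on Western diet (adjusted p = 0.91). Between diets in knockout mice it was at -0.59 (adjusted p = 0.16, both in the fit of all probes).

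Among the FACIT genes 5 of 6 rose on Western diet and none fell, although Col22a1 turned negative with normexp. Col16a1 coats fibrils and is made by fibroblasts and smooth muscle. Col16a1 on Western diet was at 1.57, 2.56, 2.26, 1.17 and 1.66 in knockout mice, against -0.51, -0.32, -1.12, -0.60 and -1.06 in wild-type mice. Col16a1 on normal diet was at 0.32, -0.51, 0.06, -0.16 and 0.20 in knockout mice, against -0.86, -1.15, -0.90, -0.86 and -0.97 in wild-type mice. The genotypes did not overlap on either diet, by a wide gap on Western diet and by a narrow gap on normal diet. The Col16a1 difference was 2.56 ± 0.23 (adjusted p = 3.45e-08) on Western diet, 0.93 ± 0.23 (adjusted p = 0.00764) on normal diet, and 1.86 between diets in knockout mice (adjusted p = 2.39e-06).

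Col20a1, a little-studied member, was higher in knockout mice whatever the diet. Col20a1 on Western diet was at -0.05, -0.62, -0.88, -0.61 and -0.37 in knockout mice, against -2.58, -4.00, -2.31, -1.59 and -2.19 in wild-type mice. Col20a1 on normal diet was at -0.42, -0.04, 0.31, 0.43 and 0.11 in knockout mice, against -1.16, -1.61, -1.03, -2.12 and -2.01 in wild-type mice. No wild-type mouse reached the level of any knockout mouse on the same diet. The differences were 2.03 ± 0.34 on Western diet (adjusted p = 5.15e-05, or 0.76 with normexp) and 1.66 ± 0.34 on normal diet (adjusted p = 0.00174). Between diets Col20a1 differed by -0.58 in knockout mice (adjusted p = 0.163), and the genotype difference changed by 0.36 (adjusted p = 0.642), both short of the test.

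Col12a1 associates with type I fibrils. Col12a1 on Western diet was at -2.10, -2.57, -2.16, -2.90 and -2.29 in knockout mice, against -4.76, -4.37, -4.45, -4.77 and -7.39 in wild-type mice. Col12a1 on normal diet was at -6.82, -6.68, -5.64, -5.53 and -5.85 in knockout mice, against -5.62, -5.31, -4.50, -4.96 and -5.74 in wild-type mice. Knockout mice on Western diet were above all others. The fifth wild-type mouse on Western diet was far below the rest of its group, in which 4 of 5 mice were well above background. Its value enters the difference that follows. Col12a1 was 2.74 ± 0.46 higher on Western diet (adjusted p = 5.21e-05), a value of 0.29 with normexp, and it was at least 5.94-fold higher on Western than on normal diet in knockout mice (adjusted p = 2.58e-06). The other probe of Col12a1 gave 0.60 between genotypes on Western diet (adjusted p = 0.13). Col14a1, which regulates fibril diameter, averaged 2.74 ± 0.15 in knockout mice and 1.58 ± 0.33 in wild-type mice on Western diet. It averaged 2.20 ± 0.27 in knockout mice and 1.52 ± 0.33 in wild-type mice on normal diet. Its differences were 1.16 (adjusted p = 2e-05) and 0.68 (adjusted p = 0.0112). Col22a1 rose by 1.54 on Western diet (adjusted p = 0.000183), or -0.18 with normexp, and Col9a2, of cartilage, differed by -0.75 (adjusted p = 0.194). The slide took 85.8% of the Col9a2 variance, and with the slide as a block the difference was -0.64 (adjusted p = 0.0012).

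Both short-chain genes tested rose on Western diet, although Col8a2 turned negative with normexp. Col8a1 on Western diet was at -0.28, 0.43, 0.48, -0.42 and -0.01 in knockout mice, against -1.72, -0.92, -1.95, -2.19 and -2.01 in wild-type mice. Col8a1 on normal diet was at -0.46, -2.10, -1.32, -2.09 and -1.71 in knockout mice, against -2.00, -2.01, -1.53, -1.22 and -1.78 in wild-type mice. Col8a1, made by vascular and endothelial cells, did not overlap between genotypes on Western diet, and the first knockout mouse on normal diet stood alone above its group. Col8a1 was 1.80 ± 0.30 higher on Western diet (adjusted p = 5.5e-05, or 1.05 with normexp) and 1.58 higher on Western than on normal diet in knockout mice (adjusted p = 0.000269). Col8a2, dim in wild-type mice on Western diet, was at least 1.37-fold higher in knockout mice (adjusted p = 0.000826), with a fitted difference of 1.66, or -0.23 with normexp.

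The multiplexins, both sources of matrix fragments that act on vessels, moved in opposite directions. Col15a1 on Western diet was at -1.37, 0.26, -0.20, -1.14 and -0.72 in knockout mice, against -1.49, -1.69, -2.81, -1.76 and -2.16 in wild-type mice. Col15a1 on normal diet was at -2.71, -3.09, -2.59, -3.50 and -2.80 in knockout mice, against -2.63, -1.66, -1.98, -1.48 and -1.70 in wild-type mice. Col15a1 was higher in all knockout mice than in all wild-type mice on Western diet, whereas on normal diet 4 knockout mice were below every wild-type mouse and the groups overlapped only at the third knockout and first wild-type mouse. The Col15a1 difference was 1.35 ± 0.31 on Western diet (adjusted p = 0.00115, or 0.65 with normexp), with 0.12 to 1.67 within slides, and -1.05 ± 0.31 on normal diet (adjusted p = 0.0233), with -1.52 to -0.46 within slides. The genotype difference thus changed by 2.40 ± 0.44 between diets (adjusted p = 0.000579), and Western diet raised Col15a1 by 2.30 ± 0.31 in knockout mice (adjusted p = 6.97e-06).

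Col18a1, the precursor of endostatin, fell. Col18a1 on Western diet was at 6.75, 6.72, 6.78, 6.99 and 6.87 in knockout mice, against 7.18, 7.21, 7.02, 7.63 and 7.39 in wild-type mice. Col18a1 on normal diet was at 7.31, 7.38, 7.57, 7.59 and 7.57 in knockout mice, against 7.46, 7.56, 7.41, 7.99 and 7.67 in wild-type mice. On Western diet all knockout mice were below all wild-type mice, though by little, and on normal diet the genotypes overlapped. The Col18a1 difference was -0.47 ± 0.12 on Western diet (adjusted p = 0.00365), with -0.77 to -0.030 within slides and -0.24 with normexp, and -0.66 ± 0.12 between diets in knockout mice (adjusted p = 0.000229). Its other probe gave -0.38 on Western diet (adjusted p = 0.00483). The hepatocyte markers fell in the same comparisons, with medians of -0.65 between genotypes on Western diet and -1.13 between diets in knockout mice, and their part in the Col18a1 difference was not tested.

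The transmembrane genes showed no shared direction. Col17a1 on Western diet was at -5.97, -5.76, -5.22, -5.57 and -6.97 in knockout mice, against -2.93, -2.67, -3.55, -3.92 and -3.98 in wild-type mice. Col17a1 on normal diet was at -4.46, -4.88, -4.73, -4.38 and -4.66 in knockout mice, against -4.42, -3.24, -3.90, -3.79 and -5.17 in wild-type mice. Col17a1, the hemidesmosome collagen of epithelia, was not well above background in any knockout mouse on Western diet, while all wild-type mice on that diet were. Its knockout level was lower by at least 3.92-fold (adjusted p = 8.12e-06), with -3.05 to -2.01 within slides, and at least 1.69-fold lower on Western than on normal diet in knockout mice (adjusted p = 0.00525). The Col17a1 genotype difference changed by -1.97 ± 0.49 between diets (adjusted p = 0.0062).

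Col23a1 averaged -3.91 ± 0.40 in knockout mice and -5.22 ± 0.75 in wild-type mice on Western diet and rose by 1.30 (adjusted p = 0.00359), a value of -0.27 with normexp. Col13a1 averaged -0.93 ± 1.03 in knockout mice and -1.04 ± 0.31 in wild-type mice on Western diet, a difference of 0.11 (adjusted p = 0.83). Col25a1, known from the brain, averaged -4.74 ± 0.91 in knockout mice and -4.62 ± 0.56 in wild-type mice, a difference of -0.12 (adjusted p = 0.84). Col7a1, the chain of the anchoring fibrils of skin and the sole tested gene of the remaining class, averaged -1.36 ± 0.30 in knockout mice and -1.81 ± 0.56 in wild-type mice, a difference of 0.45 (adjusted p = 0.154). The probes that stand for Col13a1, Col25a1 and Col7a1 passed the test in none of the comparisons. The other passed Col13a1 probe was at -1.63 between diets in knockout mice (adjusted p = 0.0122, in the fit of all probes), where the probe that stands for the gene was at -0.39.

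On normal diet, where the genotypes could be compared without the dietary load, collagen genes passed the test about as often as all genes. 4 rose in knockout mice (Col16a1, Col20a1, Col14a1 and Col4a3) and 3 fell (Col5a3, Col11a2 and Col15a1), against 11.4% and 7.91% of all genes. The share of collagen genes past the test, 7 of 35, stood beside 19.3% of all genes, and the median difference over the 35 was 0.16, or -0.13 with dim values at the floor (all genes -0.05). No fibrillar gene rose and 2 fell (median 0.50, or -0.13 at the floor), 1 basement membrane gene rose (median 0.42), and among the other classes 3 rose and 1 fell (median -0.18, or 0.077 with normexp). With normexp none of the 35 passed the test (496 of 17547 over all genes), and none of the 7 held under every alternative tried.

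The effect of Western diet in knockout mice was read from mice that also enter the genotype comparison on that diet, so both share the knockout mice on Western diet and their values are not independent. Over all genes 23.7% rose and 26.4% fell with the diet in knockout mice. Of the marker lists, myofibroblast and cholangiocyte markers also rose with the diet in knockout mice, in 6 of 9 and 6 of 6 genes, and 7 of 7 hepatocyte markers fell. Of the macrophage markers 6 of 9 rose and 1 fell, with single differences of -3.70 to 8.86. Their summed level was 91.1 to 131 in knockout mice on Western diet against 5.07 to 15.5 in knockout mice on normal diet. Mesothelial markers rose in 3 of 4 genes, while 2 of 11 quiescent stellate markers rose and 4 fell, and 3 of 8 endothelial ones rose and 3 fell. The part of these cell types in the effect of the diet was not tested. With the diet 19 collagen genes rose and 4 fell in knockout mice, against 23.7% and 26.4% of all genes (50% in either direction), at a median of 0.92 (0.54 with dim values at the floor, -0.04 with normexp, and -0.09 over all genes). The median over all genes with normexp was -0.19. Of the fibrillar genes 6 rose and 2 fell (median 0.92, or -0.037 with normexp), of the basement membrane genes 3 rose (median 1.35, or -0.12), and of the others 10 rose and 2 fell (median 0.78, or -0.18). The genes that fell were again Col5a3, Col27a1, Col18a1 and Col17a1. Col4a5, Col8a2 and Col23a1, which rose, were tested only because knockout mice on Western diet reached the detection level. Among the genes well above background in both groups, Col1a1, Col3a1, Col5a2 and Col1a2 led the increases, at 5.23, 3.77, 3.64 and 3.55, and Col12a1 has the bound of at least 5.94-fold.

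In wild-type mice Western diet changed no collagen gene at an adjusted p under 0.05 by limma, as read by the probe that stands for it. Over all genes 3.16% were higher, 2.75% lower and 5.91% either. An unadjusted p under 0.05 was found for 6 of the 35 collagen genes and for 3432 of 17543 over all genes. The median difference over the 35 was -0.18 (all genes -0.03). Of these probes that of Col11a2 came nearest, at -0.53 ± 0.16 (adjusted p = 0.0639), with every wild-type mouse on Western diet below every wild-type mouse on normal diet, and it passed with the slide as a block (-0.51, adjusted p = 0.0492). Col5a3 also did not overlap and was 0.77 apart (adjusted p = 0.142). In the fit of all probes the other Col12a1 probe passed, at 1.35 (adjusted p = 0.021), with 4 of 5 wild-type mice above background on Western diet and none on normal diet, whereas the probe that stands for Col12a1 was at 0.078 (adjusted p = 0.946).

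**Figure D4:**
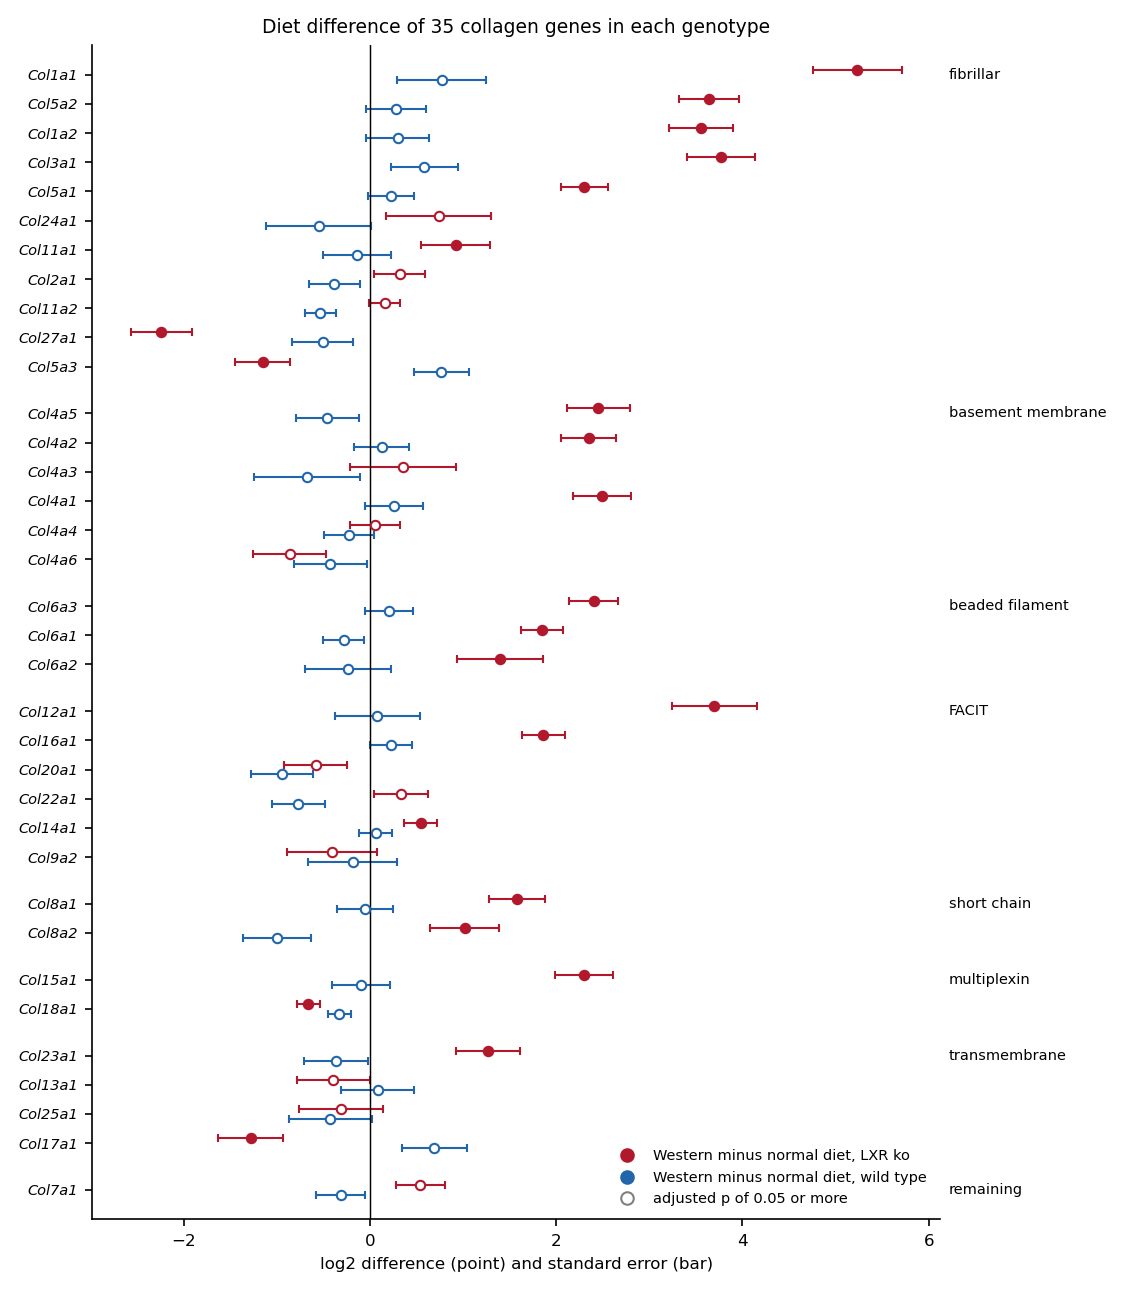
Log2 difference of Western minus normal diet for the 35 collagen genes tested, by class, in knockout mice (red) and wild-type mice (blue), with the standard error as bars, 5 mice a group. Filled points have an adjusted p under 0.05: 19 higher and 4 lower in knockout mice, 5 of the 19 being negative with normexp, and none in wild-type mice.

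Whether the effect of diet differed between genotypes was tested as an interaction. It passed for 20 collagen genes, 17 with a more positive genotype difference on Western diet and 3 with a more negative one (Col5a3, Col17a1 and Col27a1), against 13.2% and 13.7% of all genes, and 27% in either direction. The median over the 35 was 1.29 (all genes -0.05), or 0.87 with dim values at the floor and 0.050 with normexp (all genes -0.16 with normexp). Fibrillar genes gave 6 positive and 2 negative (median 1.29), basement membrane genes 3 positive (median 1.62, or -0.061 with normexp) and the others 8 positive and 1 negative (median 1.36). Among these, Col4a5, Col8a2 and Col23a1 reached the detection level only in knockout mice on Western diet, and Col17a1 only in wild-type mice on it.

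Mice of a group differed in their collagen levels. Among knockout mice on Western diet the third was the highest in 14 of 35 genes, the first was the lowest in 11, and the fourth was the lowest in 14 and the highest in 8. In knockout mice on normal diet the fourth was highest in 14 and lowest in 6, and so was the first, which was highest in Col1a1, Col1a2, Col3a1, Col4a1, Col6a3 and Col8a1. The fourth knockout mice of both diets lay on slide 4. There the probes that stand for Col2a1, Col4a4, Col4a6, Col9a2 and Col25a1 had their highest slide means. These counts thus do not separate the mouse from the slide. Without the first knockout mouse on normal diet the median collagen difference on that diet was 0.018 in place of 0.16. The second wild-type mouse on Western diet was highest in 14 genes.

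Genes that modify, cross-link, bind or degrade collagen were described as a list of 46, of which 41 were tested. On Western diet 21 rose and 8 fell in knockout against wild-type mice (26.1% and 30.6% of all genes), at a median of 0.83. Ctsk, the collagen-degrading cathepsin K, averaged 2.27 ± 0.43 in knockout mice and -5.06 ± 0.44 in wild-type mice (SD, n = 5 each), a difference of 7.33 (adjusted p = 6.92e-11), and was above background in 1 of 5 wild-type mice. Lox, a cross-linking lysyl oxidase that is also on the myofibroblast list, was at least 8.54-fold higher (adjusted p = 4.78e-08), Ddr1, a collagen receptor, was 4.78 higher (adjusted p = 3.84e-11), and Loxl2, another lysyl oxidase, was 4.48 higher (adjusted p = 3.97e-09). On normal diet 5 rose and 5 fell (median 0.055, against 11.4% and 7.91% of all genes). Pcolce2, an enhancer of procollagen cleavage, was lower by 4.16 (adjusted p = 2.88e-05), above background in 1 of 5 knockout and 5 of 5 wild-type mice, and Loxl2 was higher by 1.67 (adjusted p = 0.00153). Western diet raised 23 and lowered 4 in knockout mice (median 0.73, against 23.7% and 26.4% of all genes), with Ctsk at 5.53 (adjusted p = 4.37e-09). It raised 1 and lowered 3 in wild-type mice (median 0.11, against 3.16% and 2.75% of all genes). The gene that rose was P4ha2, a prolyl hydroxylase subunit, at 0.88 (adjusted p = 0.0198), and those that fell were Bmp1, a procollagen protease, Fn1, fibronectin, and P4hb, the other prolyl hydroxylase subunit, at -0.78, -0.69 and -0.40 (adjusted p = 0.00997, 0.00757 and 0.0187). The interaction passed for 18 upward and 2 downward (median 0.55, against 13.2% and 13.7% of all genes).

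**Figure D5:**
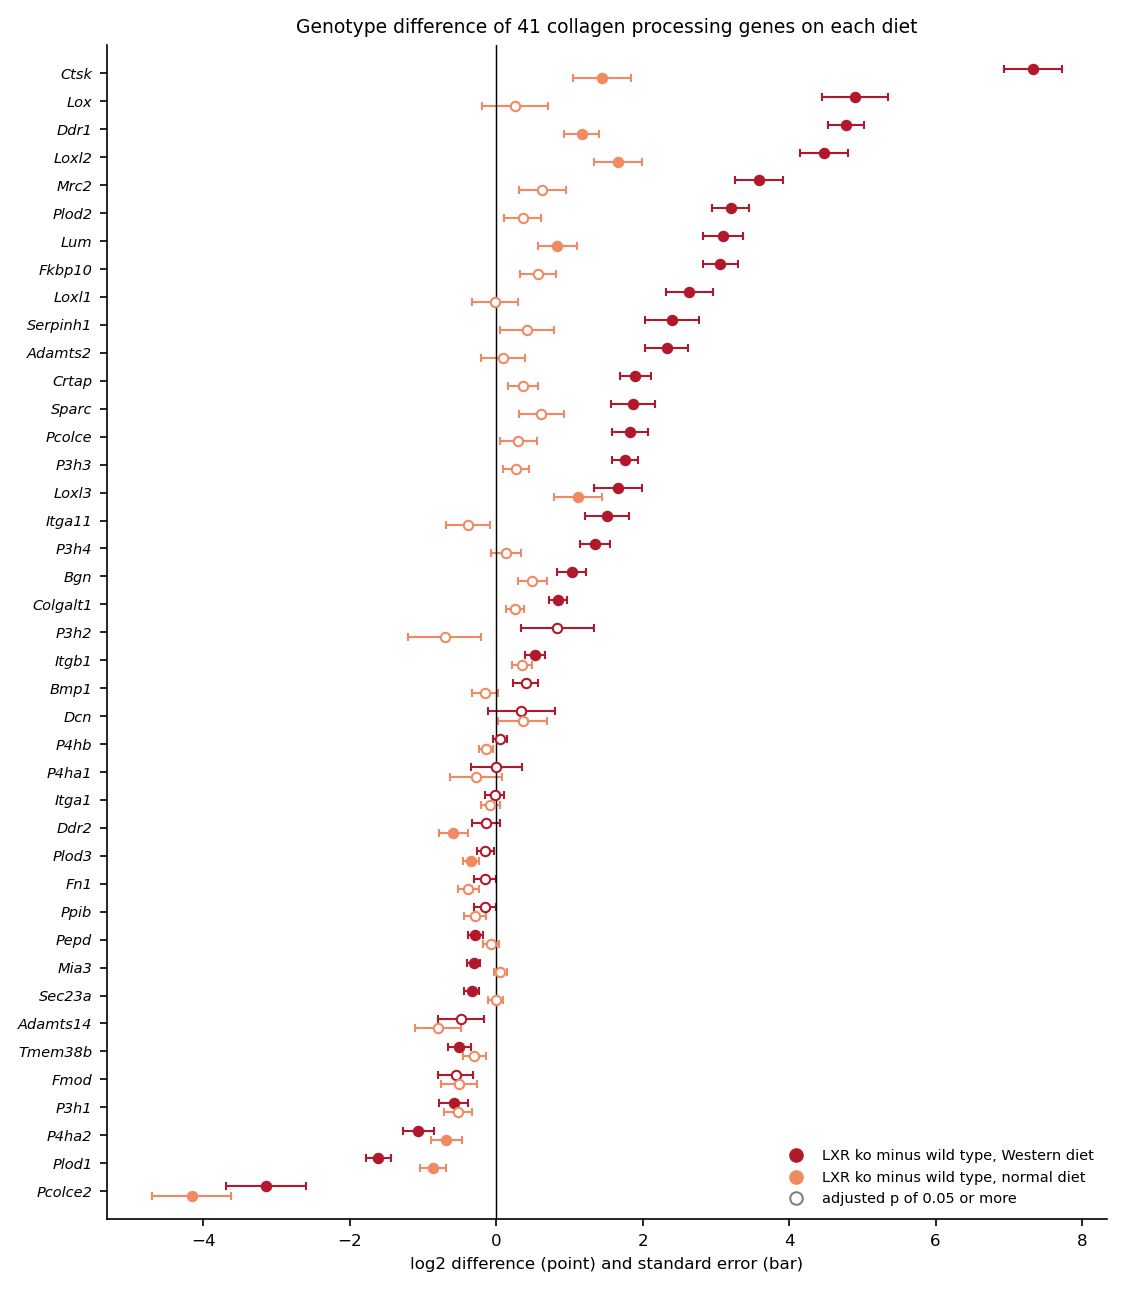
Log2 difference of knockout minus wild-type mice for the 41 collagen processing genes tested, on Western diet (dark red) and normal diet (orange), with the standard error as bars, 5 mice a group. Filled points have an adjusted p under 0.05, with 21 higher and 8 lower on Western diet and 5 and 5 on normal diet.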

How the data were processed

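Liver RNA of 20 mice was hybridised to 1 Agilent single-colour (Cy3) array each. Per the file headers, the deposited intensity values came from Feature Extraction 9.5.3.1, which subtracted background and gave dim spots surrogate values, and the probe design was annotated on mm8. The deposited series matrix holds log2 values of the authors, whose normalization and probe choice are not given in the sources used here. It lists 32 of the 35 collagen genes and served as an alternative.

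Spots marked as outliers by the extraction software (105 to 270 per array) and control spots were left out. The log2 of the processed signal minus the array's 75th percentile was averaged over the spots of each probe, and of several probes for a gene that with the highest mean was used. Of the 80 collagen probes 61 had a RefSeq accession, and all 61 carried the same symbol there. Groups were taken from the labels. The labels say that 5 separate mice were used per group. limma 3.58.1 in R 4.3.3 (with the data.table package, 1.17.8) fitted 4 group means (residual df 16, prior df 2.24) and 5 comparisons, 2-sided, with Benjamini-Hochberg adjustment over the 17540 to 17548 genes with a value in a comparison. The number of arrays limits the precision. The fit was tested on simulated data. Figures were drawn with matplotlib 3.10.9.

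Every collagen gene may be named. Full values are given for the members with the widest genotype difference of each class, for those that fell, and for Col18a1. Col3a1 and Col4a1 were given in full as well, a choice made after their values were seen. Of other genes only the deleted ones, the widest-moving processing genes and the marker lists (hepatocyte, quiescent stellate, myofibroblast, endothelial, cholangiocyte, macrophage, mesothelial, skeletal muscle, red blood cell) appear. The members, classes and lists were chosen with earlier results of these data known. The alternatives tried were other scalings, normexp (offset 50), other dim-probe filters, other probe rules, robust fits, slide and replicate blocks, and leaving out each mouse. 4 further probes that RefSeq names collagens fall outside the naming rule, and 1 of them, that of Col6a4, was tested, with no difference past the threshold.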

Additional observations from a re-analysis of the deposited data

Results flagged for a closer look

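In 5 of 140 groups of 5 mice, for the 35 genes tested, a mouse lay far from the other 4 by Dixon's criterion, and chance gives about 1 in 20. These were Col12a1 in the fifth wild-type mouse on Western diet (-7.39), Col4a1 in the first knockout mouse on normal diet (0.66), Col4a3 in the fourth wild-type mouse on Western diet (-7.19, in a group with no mouse above background), Col4a4 in the fourth wild-type mouse on normal diet (-1.19) and Col6a3 in the second wild-type mouse on Western diet (-0.41). For Col12a1, 4 of 5 mice of that group were well above background.

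The difference between genotypes was not the same on both diets for 20 collagen genes, by limma's interaction at an adjusted p under 0.05. The genotype difference was more positive on Western diet for Col1a1 (4.46), Col12a1 (3.62), Col5a2 (3.36), Col1a2 (3.26), Col3a1 (3.19), Col4a5 (2.91), Col15a1 (2.40), Col4a1 (2.24), Col4a2 (2.22), Col6a3 (2.20), Col6a1 (2.13), Col5a1 (2.08), Col8a2 (2.01), Col16a1 (1.64), Col8a1 (1.63), Col23a1 (1.63) and Col11a2 (0.69). It was more negative for Col17a1 (-1.97), Col5a3 (-1.91) and Col27a1 (-1.73).

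Col9a3, a cartilage FACIT chain that was not tested, was well above background on 2 of the 5 arrays of knockout mice on Western diet and on none of the other groups.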

How the results depend on the processing

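Of the collagen genes past the test, 13 of 27 between genotypes on Western diet, 11 of 23 between diets in knockout mice, 9 of 20 in the interaction and 0 of 7 between genotypes on normal diet held under every alternative. Normexp left 14 collagen genes past the test between genotypes on Western diet, 12 between diets in knockout mice, 9 in the interaction and 0 between genotypes on normal diet. Over all genes it left 4099 of 17545, 3489 of 17548, 985 of 17540 and 496 of 17547, in the same order. Its medians were -0.030 (all collagens), -0.045 (fibrillar), -0.10 (basement membrane) and 0.014 (other classes) for genotype on Western diet, -0.037 (all collagens), -0.037 (fibrillar), -0.12 (basement membrane) and -0.18 (other classes) for Western diet in knockout mice, 0.050 (all collagens), 0.067 (fibrillar), -0.061 (basement membrane) and 0.030 (other classes) for interaction, and 0.077 (other classes) for genotype on normal diet. The medians over all genes with normexp were -0.188 for genotype on Western diet, -0.194 for Western diet in knockout mice and -0.16 for interaction. Called differences that turned negative with normexp, to be read beside those medians, were as follows. For the genotype on Western diet Col11a1 -0.21, Col22a1 -0.18, Col23a1 -0.27, Col24a1 -0.19, Col4a3 -0.14, Col4a5 -0.094, Col8a2 -0.23. For Western diet in knockout mice Col11a1 -0.21, Col23a1 -0.33, Col4a5 -0.25, Col6a2 -0.033, Col8a2 -0.38. For the interaction Col11a2 -0.24, Col23a1 -0.33, Col4a5 -0.22, Col8a2 -0.33. The mean of all probes turned the sign of genes whose probes disagree (Col4a4 genotype on normal diet 0.69, Col4a4 genotype on Western diet 0.62, Col4a6 genotype on Western diet 0.80, Col4a6 Western diet in knockout mice 0.58, Col4a6 interaction 0.94), and its medians were 1.09 (all collagens), 2.25 (basement membrane) and 0.80 (other classes) for genotype on Western diet, 0.58 (all collagens) and 0.53 (other classes) for Western diet in knockout mice, and 0.88 (all collagens) and 0.75 (other classes) for interaction. With every probe tested the medians were 1.96 (basement membrane) and 1.02 (other classes) for Western diet in knockout mice, 2.00 (basement membrane) and 1.10 (other classes) for interaction, and 0.012 (other classes) for genotype on normal diet. In the deposited series matrix they were 0.49 (all collagens), 0.40 (basement membrane) and 0.71 (other classes) for genotype on Western diet, 0.39 (all collagens), 0.24 (basement membrane) and 0.47 (other classes) for Western diet in knockout mice, 0.50 (all collagens), 0.36 (basement membrane) and 0.52 (other classes) for interaction, and 0.031 (other classes) for genotype on normal diet. With dim values raised to the floor they were 1.16 (all collagens), 0.77 (fibrillar) and 1.07 (basement membrane) for genotype on Western diet, 0.54 (all collagens), 0.67 (basement membrane) and 0.54 (other classes) for Western diet in knockout mice, 0.87 (all collagens), 0.95 (basement membrane) and 0.86 (other classes) for interaction, and -0.13 (all collagens) and -0.13 (fibrillar) for genotype on normal diet. With only probes above background on all 20 arrays, 23 genes were tested, 17 and 15 passed between genotypes on Western diet and between diets in knockout mice, and the medians were 1.43 (basement membrane) for genotype on Western diet, 0.54 (all collagens) and 0.54 (other classes) for Western diet in knockout mice, 0.85 (all collagens), 1.25 (basement membrane) and 0.85 (other classes) for interaction, and 0.29 (other classes) for genotype on normal diet. Over all genes with that filter, 8030 of 13777 passed between genotypes on Western diet and 7178 of 13780 between diets in knockout mice. Centring on the median left 4 collagen genes past the test between genotypes on normal diet, and 2254 of 17547 over all genes. It moved the all-gene median on Western diet to -0.25 and the share of higher calls between diets in wild-type mice to 66.6% from 53.4%. Normexp moved that share in the interaction to 67.9%, against 49.2%. Between diets in wild-type mice 1 collagen gene passed in each of 4 alternatives, Col12a1 by its other probe with every probe tested, and Col11a2 with the slide block, with the replicate block and with only the 2 groups fitted. Leaving out each mouse in turn gave 25 to 28 for genotype on Western diet, 21 to 24 for Western diet in knockout mice, 19 to 21 for interaction, 5 to 8 for genotype on normal diet and 0 to 1 for Western diet in wild-type mice genes past the test, and medians of 1.39 to 1.68 (all collagens), 1.32 to 2.21 (fibrillar), 2.83 to 3.01 (basement membrane), 1.14 to 1.46 (other classes) for genotype on Western diet, 0.73 to 1.16 (all collagens), 0.73 to 1.16 (fibrillar), 1.15 to 1.55 (basement membrane), 0.68 to 0.91 (other classes) for Western diet in knockout mice, 1.08 to 1.63 (all collagens), 0.87 to 1.71 (fibrillar), 1.27 to 1.82 (basement membrane), 1.11 to 1.44 (other classes) for interaction, 0.018 to 0.31 (all collagens), 0.24 to 0.60 (fibrillar), 0.24 to 0.58 (basement membrane), -0.24 to -0.013 (other classes) for genotype on normal diet, -0.28 to -0.055 (all collagens), 0.097 to 0.32 (fibrillar), -0.44 to -0.18 (basement membrane), -0.34 to -0.061 (other classes) for Western diet in wild-type mice. Deviations of mice with the same number correlated at -0.377 to -0.0056 between genotypes on normal diet and -0.346 to 0.267 on Western diet. Between diets they correlated at 0.0282 to 0.488 in wild-type mice and -0.0403 to 0.451 in knockout mice, where most such mice shared a slide. The replicate block added the call of Col4a6 between genotypes on Western diet (adjusted p = 0.047) and Col11a2 between diets in wild-type mice (adjusted p = 0.0439) and removed none. The slide block removed no call and added 13, those of Col12a1 (genotype on normal diet), Col2a1, Col4a6 and Col9a2 (genotype on Western diet), Col11a2 (diet in wild-type mice), Col24a1, Col2a1, Col4a6 and Col9a2 (diet in knockout mice), and Col22a1, Col2a1, Col4a6 and Col6a2 (interaction). Genes not well above background carry only a bound, and where the cause of a change is not named, the cause was not tested.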
